A study of Mus musculus with 12 samples.

Results

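Genes of retinoid uptake and metabolism were followed in mouse small-intestinal epithelium, 8 of the 48526 gene rows in each library's file: Scarb1, Isx, Bco1, Rbp2, Lrat, Rdh7, Dhrs3 and Aldh1a1. They were listed by name and found by Ensembl identifier without its version. They were chosen on the loss of Lrat from DKO J2 pulldowns, so the J2 values of these genes between genotypes are given as a description, without a test. All 8 genes had a row in all 12 libraries.

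RNA was measured in 4 female mice aged 3 months, 2 control and 2 KAT2A/KAT2B DKO, in which the genes for the lysine acetyltransferases KAT2A and KAT2B were deleted in the adult. DKO mice received tamoxifen at 100 mg/kg by intraperitoneal injection daily for 4 days, controls received the ethanol and corn oil vehicle alone, and epithelium was collected 2 days after the final dose. The driver of the recombinase, the alleles and the genotype of the controls are not given in the sources used here. Only DKO mice received tamoxifen, so tamoxifen and the deletion cannot be told apart in any DKO against control value. Cells were released with EDTA, from the proximal part of the small intestine per the labels' protocol, while the library titles name whole intestine. Each animal gave 1 input library of unselected RNA, 1 library of RNA bound by the antibody J2 and 1 bound by the antibody K1. Both antibodies bind double-stranded RNA.

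The small intestine is where dietary vitamin A enters the body. Scavenger receptor class B type 1, encoded by Scarb1, takes up carotenoids at the brush border, and beta-carotene oxygenase, encoded by Bco1, splits beta-carotene into retinal. Cellular retinol-binding protein 2 (Rbp2) carries retinol and retinal in the enterocyte, and lecithin:retinol acyltransferase (Lrat) esterifies retinol for packing into chylomicrons. Dehydrogenases such as Rdh7 and Dhrs3 interconvert retinol and retinal, and Aldh1a1 oxidises retinal to retinoic acid, the ligand of the nuclear receptors RAR and RXR. The homeobox factor Isx is induced by retinoic acid and represses Bco1 and Scarb1.

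Input libraries held 10307281 to 11474107 gene-assigned counts and control pulldowns 13308021 to 16139531. DKO pulldowns were shallower, at 2220291 to 5826361, and their replicates differed more: the Pearson correlation of log2 CPM (counts scaled to library size) across genes was 0.851 between the DKO J2 libraries and 0.910 between the DKO K1 libraries, against 0.983 or higher in the other 4 groups. In the DKO pulldowns the 10 most abundant genes took 24.7% to 33.6% of the counts, against 6.57% to 18.7% in all other libraries. Kat2b fell in DKO input, at -1.51 on the log2 scale (SE 0.165, edgeR adjusted p 0.00063), and so did Kat2a, at -0.88 (SE 0.227, edgeR adjusted p 0.0205). Enterocyte markers (15 of 15 detected) summed to 39968 to 43745 CPM in control input and 35508 to 48031 CPM in DKO input. CPM values below were scaled with TMM over all 12 libraries, and n is 2 mice per group.

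The level of each gene in control input, compared between genes as CPM per kilobase of exon, spanned from Rbp2 to Bco1. Rbp2 stood at 1902 ± 381 CPM per kilobase (SD, n = 2), Aldh1a1 at 76.8 ± 27.6, Isx at 67.1 ± 4.00, Rdh7 at 41.5 ± 17.4 and Dhrs3 at 19.4 ± 2.43. Lrat stood at 4.72 ± 0.834, Scarb1 at 4.18 ± 0.245 and Bco1 at 0.521 ± 0.0809. The values of Aldh1a1 and Isx overlapped between libraries, as did those of Lrat and Scarb1, so neither pair has an order beyond its spread. In DKO input Rbp2 was again the most abundant, at 1697 ± 221 CPM per kilobase, while Bco1 stood at 3.80 ± 0.300 beside Dhrs3 at 3.84 ± 0.0770, and Lrat was the least abundant at 0.420 ± 0.251. Bco1 was thus the least abundant of the 8 in control and Lrat in DKO. Per kilobase of the longest transcript in place of all exons, control input gave 11.5 for Scarb1 and 161 for Aldh1a1, which put Scarb1 above Lrat.

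**Figure D1:**
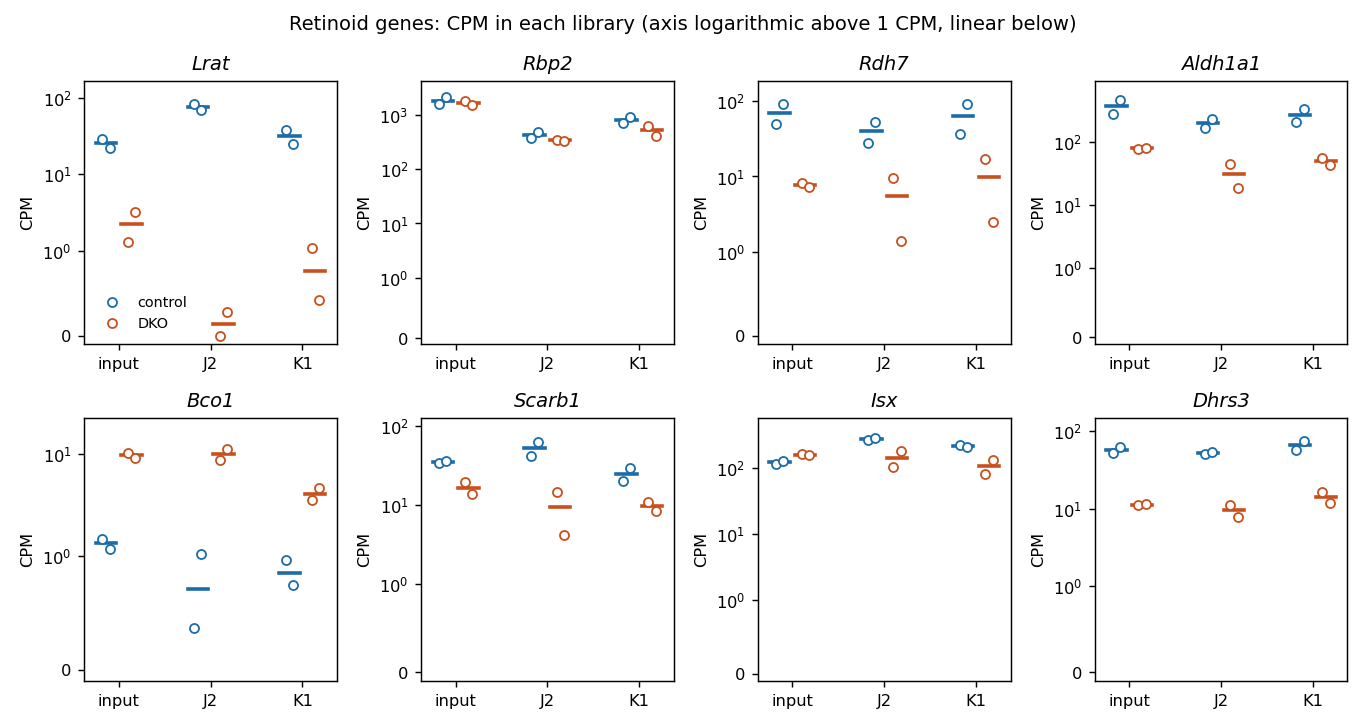
CPM of the 8 genes (one panel each, axis logarithmic above 1 CPM and linear below) in input, J2 and K1 libraries, for control (blue) and DKO (orange). Each circle is 1 library and each bar the mean of 2. Bco1 was higher in every DKO library than in any control library. Lrat, Rdh7, Aldh1a1, Dhrs3 and Scarb1 were lower in every DKO library than in any control library. For Scarb1 the margin was narrow, with 19.7 CPM in a DKO input library and 20.3 CPM in a control K1 library. The J2 libraries led to the choice of the genes, and the share of all genes that separate in this way was not counted. In input alone 35.9% of all genes tested were called.

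The promoters of 3 genes are shown because their genes moved in opposite directions in input (Bco1 higher, Lrat lower) or did not pass the test (Rbp2). Each is the 300 bases around a gene start in RefSeq (GRCm38.p6), 5′ to 3′ on the gene's own strand: Bco1 at chr8:117095615-117095914 (plus strand), Lrat at chr3:82903925-82904224 (minus strand) and Rbp2 at chr9:98490287-98490586 (plus strand). Capitals mark exact matches, on either strand, to the motifs named after the sequences.
Bco1: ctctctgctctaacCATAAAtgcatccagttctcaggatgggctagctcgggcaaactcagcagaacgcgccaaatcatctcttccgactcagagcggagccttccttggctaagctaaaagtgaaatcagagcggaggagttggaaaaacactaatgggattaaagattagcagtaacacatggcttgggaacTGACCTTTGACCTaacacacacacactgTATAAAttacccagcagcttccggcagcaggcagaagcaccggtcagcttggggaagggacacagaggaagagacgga
Lrat: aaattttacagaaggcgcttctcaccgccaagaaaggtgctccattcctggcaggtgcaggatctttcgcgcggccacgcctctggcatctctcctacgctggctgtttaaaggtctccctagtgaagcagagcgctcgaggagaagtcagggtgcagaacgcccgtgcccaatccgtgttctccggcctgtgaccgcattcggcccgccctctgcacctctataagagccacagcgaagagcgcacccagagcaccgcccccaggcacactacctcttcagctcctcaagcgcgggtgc
Rbp2: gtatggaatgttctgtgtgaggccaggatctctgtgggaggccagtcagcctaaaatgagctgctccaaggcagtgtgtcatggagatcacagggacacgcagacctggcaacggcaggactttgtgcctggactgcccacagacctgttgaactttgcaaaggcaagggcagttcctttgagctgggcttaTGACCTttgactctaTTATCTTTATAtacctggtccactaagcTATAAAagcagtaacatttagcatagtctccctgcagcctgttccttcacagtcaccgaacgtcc
The motifs searched, on both strands, were the nuclear receptor site AGGTCA and its direct repeats AGGTCANAGGTCA (1 base between the copies) and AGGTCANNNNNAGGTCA (5 bases between). A binding motif of HNF4, CAAAGTCCA, was searched too. So were the CDX motif TTTATG, the GATA motif AGATAA and the TATA box TATAAA. The Bco1 promoter held AGGTCANAGGTCA on the minus strand, at base 195 of the window, overlapping the single sites at 195 and 202. That repeat occurred in 13 of 32851 promoters of this length (0.0396%), and AGGTCA alone in 16.3%. Bco1 also held a TATA box at base 223, found in 13.6% of promoters, and the CDX motif, found in 11.9%. The Rbp2 promoter held 1 AGGTCA at base 193, the GATA motif (in 11.2% of promoters) and a TATA box on each strand, the minus-strand box sharing bases with the GATA motif. None of these strings occurred in the Lrat window. The table held 11 promoters for 7 of the 8 genes, and Scarb1 had no entry. Those of Isx and Dhrs3, the first of Rdh7 and the first of Aldh1a1 also held none. These matches describe letters in a window and no binding was measured.

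Input RNA shows abundance without pulldown. It comes from the same animals as the J2 libraries used to choose the genes, so its values are not independent of that choice. Of the 8 genes 7 passed the test between DKO and control: Bco1 and Isx rose, and Lrat, Rdh7, Dhrs3, Aldh1a1 and Scarb1 fell (edgeR's quasi-likelihood test, Benjamini-Hochberg adjusted p under 0.05 over 15088 genes). Over all genes tested 35.9% were called in this comparison, 18.8% higher and 17.1% lower. The median log2 fold change of the 8 genes was -1.66, beside -0.00 over all genes tested. In bulk RNA fewer cells of a type and less RNA per cell cannot be told apart.

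The uptake and cleavage step came first. Scarb1 (ENSMUSG00000037936.15, GRCm38 chr5:125277087-125341094, minus strand, protein coding, as for all 8 genes) had 34.1 and 37.0 CPM in control input and 19.7 and 14.0 CPM in DKO input. The groups did not overlap, with a log2 fold change of -1.07 (SE 0.184, edgeR adjusted p 0.00405). Fitted with all 12 libraries together it was -1.11 and did not pass (edgeR adjusted p 0.143).

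Isx (ENSMUSG00000031621.9, chr8:74873173-74893506, plus strand) had 115 and 125 CPM in control input and 159 and 157 CPM in DKO input. This was the smallest called change among the 8 genes, a log2 fold change of 0.40 (SE 0.120, edgeR adjusted p 0.0362). It lost its call in 6 of 11 alternative settings, including without control replicate 1 (0.33, edgeR adjusted p 0.337) and without control replicate 2 (0.46, edgeR adjusted p 0.174). Bco1 and Scarb1, both known to be repressed by Isx, moved in opposite directions.

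Bco1 (ENSMUSG00000031845.15, chr8:117095854-117133720, plus strand), whose promoter is printed above, was detected in control input with only 18 and 16 counts and in DKO input with 118 and 117. This was 1.47 and 1.18 CPM in control against 10.2 and 9.13 CPM in DKO, with no overlap. Bco1 rose 7.30-fold (log2 fold change 2.87, SE 0.263, edgeR adjusted p 0.00033), and it remained called in all 11 alternative settings, with log2 fold changes of 2.71 to 3.49.

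Rbp2, the carrier (ENSMUSG00000032454.9, chr9:98486115-98509781, plus strand), had 1571 and 2089 CPM in control input and 1783 and 1482 CPM in DKO input. The groups overlapped, and the log2 fold change of -0.16 did not pass (SE 0.201, edgeR adjusted p 0.573). Without control replicate 2 it was 0.056.

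Lrat, the esterifying enzyme (ENSMUSG00000028003.6, chr3:82892579-82903973, minus strand), had 348 and 300 counts in control input and 15 and 41 in DKO input, or 28.4 and 22.1 CPM against 1.30 and 3.20 CPM. Both DKO libraries lay far below both controls. Lrat fell 11-fold (log2 fold change -3.46, SE 0.337, edgeR adjusted p 0.00041).

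Rdh7 and Dhrs3, enzymes of retinol and retinal, fell with Lrat, while such enzymes of the wider list moved in both directions, as given below. Rdh7 (ENSMUSG00000040134.8, chr10:127884028-127888817, minus strand) had 49.0 and 90.3 CPM in control input and 8.13 and 7.26 CPM in DKO input, a log2 fold change of -3.17 (SE 0.299, edgeR adjusted p 0.00036). The control animals differed from each other but both stood well above DKO. Dhrs3 (ENSMUSG00000066026.14, chr4:144892827-144928209, plus strand), which reduces retinal to retinol and is itself induced by retinoic acid, had 51.9 and 61.9 CPM in control input and 11.1 and 11.4 CPM in DKO input. It fell by 2.34 on the log2 scale (SE 0.144, edgeR adjusted p 0.00009), with close replicates in both groups.

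Aldh1a1, the retinal dehydrogenase (ENSMUSG00000053279.6, chr19:20492715-20643465, plus strand), had 283 and 476 CPM in control input and 79.1 and 80.4 CPM in DKO input, giving a log2 fold change of -2.25 (SE 0.240, edgeR adjusted p 0.00058). None of the 8 genes shared exon bases with another annotated gene. Their longest transcripts were compared with others on the same strand, keeping the matches of 100 bases or more that were largest in identity times length. No match kept and reported here reached 97% identity, but shorter matches of higher identity could be hidden behind these. The nearest of those kept were Aldh1a7, at 88.8% identity to Aldh1a1, and Rdh1, at 86.9% to Rdh7. Calls of Lrat, Rdh7, Dhrs3 and Aldh1a1 held in all 11 alternative settings.

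Markers of other cell states moved in the same input libraries, and their part in these changes was not tested. Of 6 stem cell markers 5 fell, from a summed 582 to 589 CPM in control to 118 to 188 CPM in DKO, and Olfm4 changed by -3.04 on the log2 scale (edgeR adjusted p 0.00048). Over all genes tested in input 18.8% were called higher and 17.1% lower. Of 15 enterocyte markers 5 fell and 10 did not pass, with the brush-border lactase Lct at -5.31 (edgeR adjusted p 0.00005) and sucrase-isomaltase Sis at -1.36 (edgeR adjusted p 0.00116, and 0.293 in a fit of all 12 libraries). Of 6 markers of the proximal small intestine 3 fell, from a summed 3331 to 4410 CPM to 904 to 1043 CPM, while Gata4 was at 0.04 (edgeR adjusted p 0.830). Lct is in this list as well as the enterocyte list and made up most of the control sum. It had 27736 and 42571 counts in control input and 717 and 944 in DKO input. Of 5 ileal markers in the files 4 were tested and 2 rose, from a summed 1080 to 1091 CPM to 1129 to 1257 CPM, and the ileal bile acid transporter Slc10a2 had 4 and 9 counts in control and 136 and 121 in DKO. Of 6 enteroendocrine markers 4 rose, from a summed 188 to 205 CPM to 246 to 321 CPM, and 2 of 4 tuft cell markers tested rose, from 44.2 to 49.0 CPM to 99.3 to 120 CPM. Of 7 goblet cell markers 3 rose, at 10772 to 11902 CPM in control and 11120 to 13122 CPM in DKO, and of 6 Paneth cell markers 1 rose and 1 fell, at 3092 to 3585 CPM and 1394 to 2755 CPM. Endothelial markers summed to 4.3 to 4.6 CPM in control and 15.1 to 26.2 CPM in DKO, and 1 of the 2 tested rose. Leukocyte markers summed to 52.8 to 61.0 CPM in control and 39.5 to 45.5 CPM in DKO, and of 7 tested 1 rose and 2 fell. Stromal markers summed to 1.3 to 5.1 CPM and 4.2 to 5.6 CPM, and neither of the 2 tested passed. No listed marker was at 0 in every input library.

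**Figure D2:**
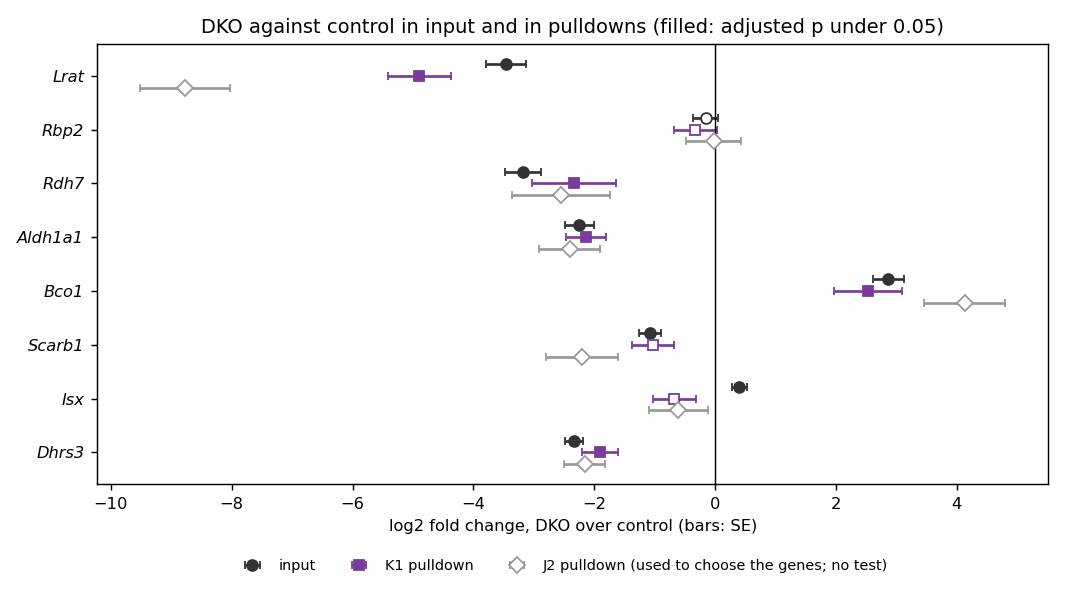
Log2 fold change of DKO over control for the 8 genes in input (black), K1 (purple) and J2 (grey) libraries, with SE as bars. Filled symbols passed at an adjusted p under 0.05 in input or K1, and J2 values, which led to the choice of the genes, are shown without a test. Bco1 lies to the right of 0 in each kind of library and Lrat to the left, from -3.46 in input to -8.77 in J2.

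The rule that chose the genes used J2 and not K1 libraries, but both come from the same 4 animals. Deviations of J2 and K1 libraries from their group means correlated at 0.662 in control and 0.722 in DKO. The genes were also chosen with earlier results of these data known, so the K1 values are not independent of the choice. In K1 libraries 5 of 8 genes passed between DKO and control: Bco1 rose, and Lrat, Rdh7, Aldh1a1 and Dhrs3 fell. The background over 12888 genes was 27.1% called, 13.2% in the higher and 13.9% in the lower direction, and the median of the 8 genes was -1.47 on the log2 scale beside -0.02 over all genes. Scarb1, Isx and Rbp2 did not pass. Stromal markers summed to 71.7 to 191 CPM in DKO K1 and 3.1 to 40.7 CPM in control K1, and 0 of the 4 tested passed. All 6 enteroendocrine markers rose in K1, from a summed 82.2 to 105 CPM to 186 to 288 CPM. Of 6 stem cell markers 4 fell, from 631 to 638 CPM to 188 to 238 CPM, and of 6 markers of the proximal small intestine 2 fell, from 2327 to 2972 CPM to 451 to 518 CPM. Mitochondrial genes took 8.76% to 18.6% of the counts in DKO K1 and 1.4% to 1.55% in control K1. Enterocyte markers summed to 11770 to 41579 CPM in DKO K1 and 26245 to 33209 CPM in control K1, and of 15 tested 2 fell. Goblet cell markers summed to 6123 to 18532 CPM in DKO K1 and 11547 to 14697 CPM in control K1, and of 7 tested 1 rose. Both sums thus differed more between the DKO K1 libraries than between the control ones. The part of these shifts in the K1 changes was not tested.

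Lrat had 592 and 336 counts in the control K1 libraries, with 5 and 1 counts in those of DKO, or 38.2 and 24.9 CPM against 1.1 and 0.42 CPM. From the pooled counts control was 36.9-fold higher (95% interval 16.9 to 101, counting error only), with a fitted log2 fold change of -4.89 (SE 0.516, edgeR adjusted p 0.00219). The DKO value rests on 6 counts in all.

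Bco1 had 0.97 and 0.74 CPM in control K1 and 3.52 and 4.64 CPM in DKO K1, on 10 to 16 counts per library. It rose by 2.53 on the log2 scale (SE 0.556, edgeR adjusted p 0.0172), but did not pass without control replicate 1 (edgeR adjusted p 0.266) or without control replicate 2 (edgeR adjusted p 0.311).

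Aldh1a1 had 214 and 337 CPM in control K1 and 56.5 and 44.3 CPM in DKO K1, a log2 fold change of -2.13 (SE 0.331, edgeR adjusted p 0.0060). Dhrs3 had 57.5 and 74.3 CPM against 16.3 and 11.8 CPM, at -1.90 (SE 0.296, edgeR adjusted p 0.0060). In both genes the groups were well apart. Rdh7 had 36.1 and 92.0 CPM in control K1 and 16.9 and 2.53 CPM in DKO K1. Its replicates were far apart in both genotypes, and its log2 fold change of -2.33 (SE 0.70, edgeR adjusted p 0.0451) did not pass without control replicate 2 (-1.56, edgeR adjusted p 0.0848). Scarb1 had 20.3 and 29.6 CPM in control K1 and 11 and 8.43 CPM in DKO K1, at -1.03 (SE 0.346, edgeR adjusted p 0.0631). Without TMM, or with no filter on low counts, Scarb1 passed (edgeR adjusted p 0.0228 and 0.0104). Isx had 224 and 205 CPM in control K1 and 79.9 and 132 CPM in DKO K1, at -0.67 (SE 0.349, edgeR adjusted p 0.191). Without DKO replicate 2 Isx passed, at -1.13 (edgeR adjusted p 0.00314). Rbp2 had 699 and 920 CPM against 627 and 413 CPM, at -0.33 (SE 0.359, edgeR adjusted p 0.535).

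J2 values describe what led to the list, and no test is read from them. For Lrat the control J2 libraries gave 1125 and 782 counts, and the DKO ones 0 and 1, or 82.5 and 68.4 CPM against 0 and 0.28 CPM. In pooled counts control was 601-fold higher, with an interval of 108 to 23768 that covers counting error only, since DKO had a single count of Lrat in all. With 0 of 5826361 counts, 3 counts would be the upper limit for the first DKO library. Bco1 had 0.37 and 1.05 CPM in control J2 and 8.73 and 11.3 CPM in DKO J2. Rdh7 had 27.6 and 52.0 CPM against 9.65 and 1.41 CPM, and Scarb1 had 42.6 and 64.4 CPM against 14.7 and 4.22 CPM. In these genes the second DKO library was lower than the first for Rdh7 and Scarb1 and higher for Bco1. Aldh1a1 had 170 and 238 CPM against 44.6 and 18.6 CPM, Dhrs3 had 51.1 and 53.8 CPM against 11.3 and 7.88 CPM, and Isx had 259 and 285 CPM against 101 and 182 CPM. Rbp2 had 371 and 479 CPM in control J2 and 344 and 333 CPM in DKO J2. Of the 8 genes 4 had an adjusted p under 0.05 in this comparison, in which 12.2% of all genes tested were called, and since the genes were chosen on it nothing is read from that count. Stromal markers summed to 22.2 to 158 CPM in DKO J2 and 3.2 to 23.3 CPM in control J2. Mitochondrial genes took 8.76% to 13.1% of the counts in DKO J2 and 2.20% to 2.77% in control J2. Enterocyte markers summed to 6802 to 37208 CPM in DKO J2 and 31913 to 34951 CPM in control J2. The part of any of these in the J2 values was not tested.

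Pulldown against input shows which transcripts were more or less frequent among antibody-bound RNA. The fits compared group means and did not pair each pulldown with the input of its own animal. Pairing entered only where the animal is named as a block and in the within-animal differences. Rbp2 was lower in K1 than in input in both genotypes, and lower in J2 than in input in control. Isx was higher in both pulldowns than in input in control. In control, K1 against input called 2 of 8 genes, against 39.8% of all genes tested, and in DKO 2 of 8 against 35.6%. J2 against input in control passed for Rbp2 and Isx among the 7 genes other than Lrat, against 29.8% of all genes. These shares lie near or below the background. J2 against input in DKO had 2 of 8 genes under the threshold (Lrat and Rbp2), where 25.7% of all genes were called, and the difference of J2 enrichment between genotypes had 1 of 8 (Lrat), where 2.71% were. Both rest on the DKO J2 libraries that the choice of genes used, and nothing is read from either count.

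**Figure D3:**
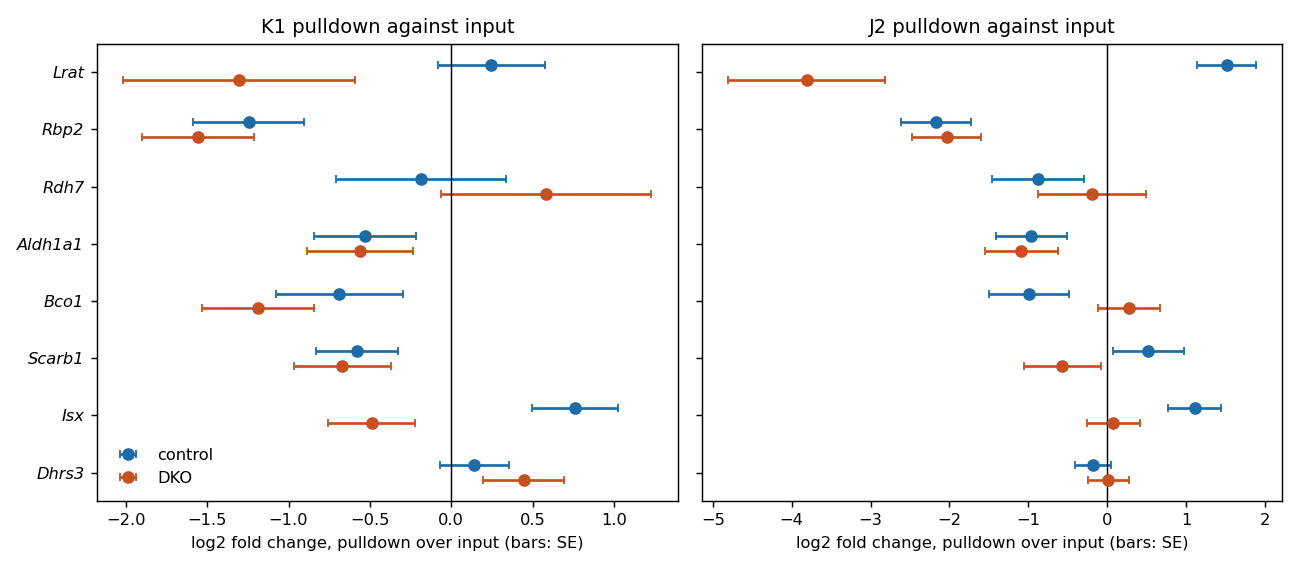
Log2 fold change of K1 over input (left) and J2 over input (right) for the 8 genes in control (blue) and DKO (orange), with SE as bars. Rbp2 lies left of 0 in all 4 contrasts, and Isx lies right of 0 in control in both panels.

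For Rbp2 the log2 difference of K1 from input within an animal was -1.17 and -1.18 for the control mice, with -1.51 and -1.84 for the DKO mice. The fitted values were -1.25 in control (SE 0.339, edgeR adjusted p 0.0147) and -1.56 in DKO (SE 0.342, edgeR adjusted p 0.00699). For J2 the within-animal values were -2.08 and -2.12 for the control mice, with -2.37 and -2.15 for the DKO mice, and the control fit gave -2.17 (SE 0.441, edgeR adjusted p 0.00969). All 4 animals had less Rbp2 in both pulldowns than in input. The control K1 call did not hold without control replicate 1 (edgeR adjusted p 0.362) or 2 (0.351), nor the control J2 call (0.452 and 0.469). The DKO K1 call did not hold without control replicate 1 (0.0650) or 2 (0.0580).

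For Isx the within-animal difference of K1 from input was 0.95 and 0.71 for the control mice but -0.99 and -0.26 for the DKO mice, with the control and DKO animals on opposite sides of 0. In control K1 was above input by 0.76 on the log2 scale (SE 0.262, edgeR adjusted p 0.0408) and J2 by 1.11 (SE 0.337, edgeR adjusted p 0.0393). The K1 call was lost in 7 of 11 alternative settings, including without control replicate 1 (edgeR adjusted p 0.50) and without control replicate 2 (0.370). Without those replicates the J2 call was lost too (edgeR adjusted p 0.561 and 0.569). In DKO K1 was at -0.49 (SE 0.265, edgeR adjusted p 0.173), and without DKO replicate 2 it was -0.92 and passed (edgeR adjusted p 0.00647). The difference of K1 enrichment between genotypes was -1.25 (SE 0.373, edgeR adjusted p 0.0787) and did not pass. With the animal as a block it was -1.29 and passed (edgeR adjusted p 0.0225).

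Among the 8 genes edgeR called 0 for a difference of K1 enrichment between genotypes, and so did DESeq2, where 5.47% of all genes were called by edgeR. Isx alone had an unadjusted p under 0.05 (0.00695). The median over the 8 genes was -0.20 on the log2 scale, and over all genes tested it was -0.20. For Lrat the difference was -1.55 with an SE of 0.784 (edgeR adjusted p 0.265), on 5 and 1 counts in the DKO K1 libraries.

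Bco1 was lower in K1 than in input in DKO, by -1.19 (SE 0.344, edgeR adjusted p 0.0229). This call did not hold without control replicate 1 (edgeR adjusted p 0.0895), control replicate 2 (0.0881) or DKO replicate 1 (0.134). In control, on 10 to 18 counts a library, Bco1 was at -0.69 (SE 0.392, edgeR adjusted p 0.188). Scarb1 stood at -0.58 in control (edgeR adjusted p 0.0928) and -0.67 in DKO (edgeR adjusted p 0.103), and with the animal as a block both passed, at -0.60 (edgeR adjusted p 0.0210) and -0.70 (edgeR adjusted p 0.0381). Within animals Scarb1 was lower in K1 than in input in all 4. Rdh7, Aldh1a1, Dhrs3 and Lrat did not pass in K1 against input in either genotype.

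For Lrat, the within-animal difference of J2 from input was 1.53 and 1.62 for the control mice but -2.90 and -2.82 for the DKO mice, which is a description of the choice and carries no test. Its K1 counterpart was 0.42 and 0.17 for the control mice, with -0.20 and -2.45 for the DKO mice.

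Because the antibodies bind paired RNA, the longest exact inverted repeat within each gene's longest transcript was measured, as 2 arms that could pair. In Lrat it was 13 bases: AATGGAAAAAAAA at base 2948 and TTTTTTTTCCATT at base 3723 of a transcript of 5351 bases. A repeat at least as long was present in 30.8% of 12094 transcripts compared, while 19.5% of transcripts were at least as long as Lrat's. Bco1 and Scarb1 also had 13 bases, Aldh1a1 had 12, Isx and Dhrs3 had 11, Rdh7 had 10 and Rbp2 had 8. No pairing was measured, and whether either antibody binds paired arms as short as these was not tested.

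The remaining retinoid genes were described from a list of 63 names in 4 groups, of which 62 were in the files. In input 39 were tested and 22 were called, 8 higher and 14 lower, with a median of -0.38 on the log2 scale beside -0.00 over all genes. The background in input was 35.9% called, 18.8% higher and 17.1% lower. In K1 35 were tested and 15 were called, 4 higher and 11 lower, with a median of -0.54 beside -0.02. The background in K1 was 27.1%, 13.2% higher and 13.9% lower. The list was not set against others by a test. In a fit of all 12 libraries 7 were called in input, where 1675 of 16582 genes were called. With one animal left out the K1 calls of the list and of all genes both moved widely. No count of the list is read from those fits.

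**Figure D4:**
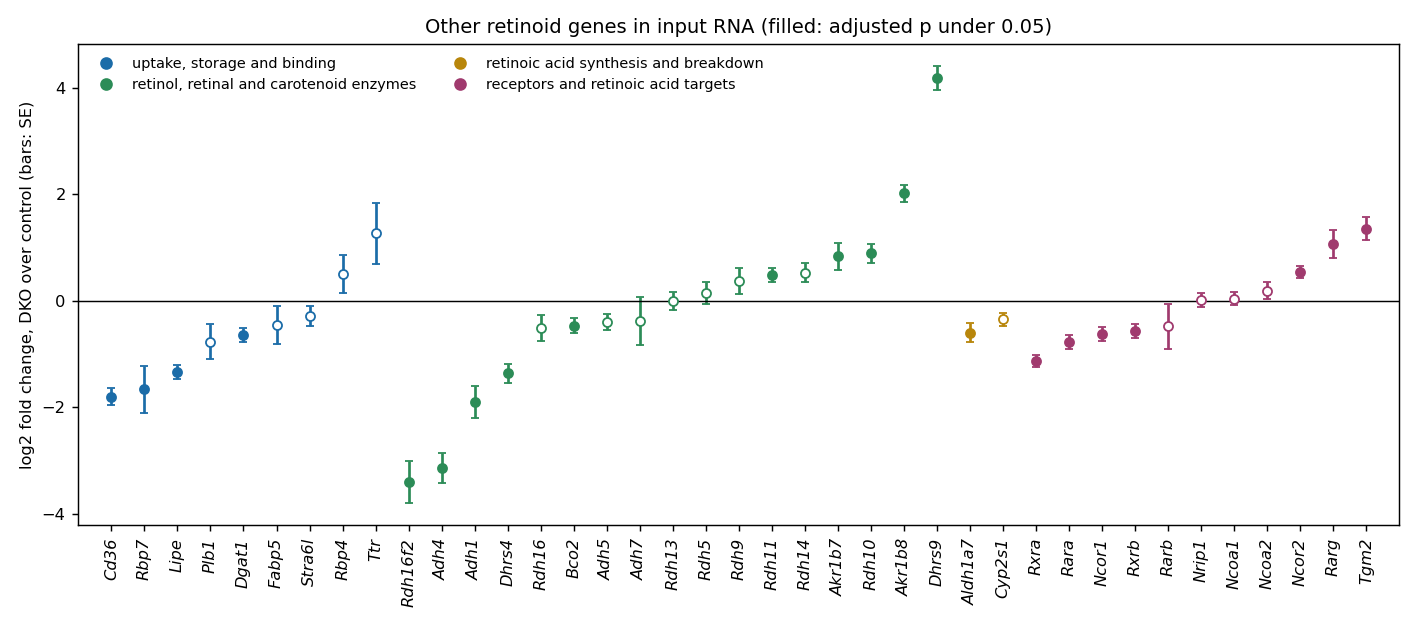
Log2 fold change of DKO over control in input RNA for the 39 tested genes of the wider retinoid list, ordered within 4 groups shown by colour, with SE as bars and filled symbols where the adjusted p was under 0.05. Values ran from -3.40 for Rdh16f2 to 4.19 for Dhrs9, both in the group of retinol, retinal and carotenoid enzymes.

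Of the 9 uptake, storage and binding genes tested and reported here, 4 fell in input and 5 did not pass, where 17.1% of all genes fell. The fatty acid and carotenoid receptor Cd36 had 874 and 1227 counts in control input and 246 and 320 in DKO input (log2 fold change -1.80, SE 0.159, edgeR adjusted p 0.0003). Hormone-sensitive lipase (Lipe) was at -1.34 (edgeR adjusted p 0.00046), the acyltransferase Dgat1, which can also esterify retinol, at -0.64 (edgeR adjusted p 0.0101) and the binding protein Rbp7 at -1.66 (edgeR adjusted p 0.0229). In a fit of all 12 libraries Dgat1 and Rbp7 did not pass (edgeR adjusted p 0.296 and 0.0853), nor did Dgat1 without control replicate 2 (0.0964) or Rbp7 without control replicate 1 (0.172), DKO replicate 1 (0.105) or DKO replicate 2 (0.0533). In K1 2 of 6 fell and the others did not pass, where 13.9% of all genes fell, with Cd36 at -3.92 (SE 0.360, edgeR adjusted p 0.00182) and Lipe at -1.48 (edgeR adjusted p 0.00799, and 0.0982 without control replicate 2). Stra6, the plasma retinol-binding protein receptor, had at most 3 counts in every library.

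Among retinol, retinal and carotenoid enzymes 5 of 17 tested in input rose and 5 fell, where 18.8% of all genes rose and 17.1% fell. Falls were led by Rdh16f2, a relative of Rdh7, at -3.40 (SE 0.400, edgeR adjusted p 0.00084), with 64 and 120 counts in control and 7 and 9 in DKO. The alcohol dehydrogenases Adh4 and Adh1, which oxidise retinol, were at -3.15 (SE 0.283, edgeR adjusted p 0.00032) and -1.90 (SE 0.307, edgeR adjusted p 0.0032). In a fit of all 12 libraries Adh1 did not pass in input (edgeR adjusted p 0.0781). Adh4 and Adh1 fell in K1 too, at -3.11 (edgeR adjusted p 0.00721) and -2.01 (edgeR adjusted p 0.0230), the latter not passing without control replicate 2 (edgeR adjusted p 0.118). The retinol dehydrogenase Dhrs9 rose most, from 20 and 22 counts to 383 and 337 (log2 fold change 4.19, SE 0.224, edgeR adjusted p 0.00006). In K1 Dhrs9 was at 0.99 (SE 0.523, edgeR adjusted p 0.197). Without DKO replicate 1 it was -0.28, and without DKO replicate 2 it was 1.62 and passed (edgeR adjusted p 0.00114). The retinal reductase Akr1b8 rose by 2.02 in input (SE 0.158, edgeR adjusted p 0.0002) and by 2.00 in K1 (SE 0.325, edgeR adjusted p 0.00665). Rdh10, which makes retinal in embryos, rose by 0.89 in input (edgeR adjusted p 0.0082), and Bco2, the other carotenoid oxygenase, fell by 0.47 (edgeR adjusted p 0.0371). In a fit of all 12 libraries neither passed (edgeR adjusted p 0.350 and 0.423), and Bco2 did not pass without control replicate 1 (0.0519), control replicate 2 (0.226) or DKO replicate 1 (0.0877). In K1 3 of 17 rose and 3 fell, beside 13.2% and 13.9% of all genes, Akr1b7 among the rises at 1.1 (SE 0.327, edgeR adjusted p 0.0438), a call lost without control replicate 1 (edgeR adjusted p 0.427), control replicate 2 (0.177) or DKO replicate 1 (0.103).

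Of 8 genes of retinoic acid synthesis and breakdown, only 2 could be tested in input, of which Aldh1a7, close in sequence to Aldh1a1, fell by 0.60 (SE 0.176, edgeR adjusted p 0.0327) and Cyp2s1 was at -0.35 (edgeR adjusted p 0.0635). Aldh1a7 did not pass in a fit of all 12 libraries (edgeR adjusted p 0.495), without control replicate 2 (0.332) or without DKO replicate 2 (0.0819), and Cyp2s1 passed without DKO replicate 1 (0.0370). Cyp26a1, the retinoic acid hydroxylase and a common readout of retinoic acid signalling, had at most 3 counts in every library and was not tested.

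Among receptors, cofactors and retinoic acid targets 3 of 11 tested in input rose and 4 fell, against the 18.8% and 17.1% of all genes above. The receptors Rxra and Rara fell in input, at -1.13 and -0.77 (edgeR adjusted p 0.00056 and 0.00434) and in K1, at -1.73 and -1.37 (edgeR adjusted p 0.0112 and 0.0122). Rarg rose in input by 1.07 (edgeR adjusted p 0.0177). In a fit of all 12 libraries Rxra, Rara and Rarg did not pass in input (edgeR adjusted p 0.233, 0.0801 and 0.137), and Rarg did not pass without control replicate 1 (0.109) or 2 (0.0900). In K1 Rxra and Rara did not pass without control replicate 1 (0.0925 and 0.0760) or 2 (0.115 and 0.108). Transglutaminase 2 (Tgm2), a known retinoic acid target, rose by 1.35 in input (SE 0.216, edgeR adjusted p 0.00306) and by 1.34 in K1 (SE 0.345, edgeR adjusted p 0.0282). In a fit of all 12 libraries Tgm2 did not pass in input (edgeR adjusted p 0.162) or in K1 (0.126). The K1 call of Tgm2 was also lost without control replicate 1 (edgeR adjusted p 0.318) or control replicate 2 (0.341). In K1 1 of 10 rose and 6 fell, beside 13.2% and 13.9% of all genes, the corepressor Ncor1 at -1.74 (edgeR adjusted p 0.0112) and the coactivator Ncoa2 at -1.54 (edgeR adjusted p 0.0125) among them. Neither passed without control replicate 1 (edgeR adjusted p 0.179 and 0.133) or 2 (0.107 and 0.0568).

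The genes whose levels most resembled Lrat's over the 12 libraries were named from 9386 genes compared by Pearson correlation of log2 CPM. They were Glce at 0.985, Mmgt1 at 0.981, Acvr1c at 0.975, Nudt12 at 0.974 and Vegfb at 0.970, given as a description, since the 12 points share animals and depth. Mmgt1 had 94.4 and 68.2 CPM in control J2 and 1.15 and 1.97 CPM in DKO J2, and 18.7 and 19.2 CPM in control input against 5.54 and 9.91 CPM in DKO input. Glce had 34.4 and 29.3 CPM in control J2 and 4.37 and 4.78 CPM in DKO J2. Only genes averaging 50 or more counts a library were compared, which left out Bco1. None of the other retinoid genes compared was among these 5.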

How the data were processed

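Unstranded whole-number read counts per gene, 1 file per library, were deposited by the authors, per the labels. The submitters' processing notes name STAR 2.7.10b, UMI-tools 1.1.4 and HTSeq 2.0.2 and the builds mm10 and GRCm38.p4, without their roles. Strand was kept in library preparation and not used in counting, so antisense reads cannot be separated. No spike-in is described, so CPM cannot show how much RNA each pulldown recovered.

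Identifiers were matched to GENCODE M21 (GRCm38) without version, for 48144 of 48526 rows. Rows that name no gene were left out. The test was edgeR's quasi-likelihood test (edgeR 4.0.16, R 4.3.3) with TMM scaling. Genes entered through filterByExpr at a minimum count of 10, and p-values were adjusted by Benjamini-Hochberg over every gene tested, with 0.05 as threshold. DKO and control were compared within each kind of library (4 libraries). Pulldown was compared with input, and that difference between genotypes, in fits of 8 libraries. These fits used group means without the pairing by animal, which entered only in the block alternative. SE is the log2 fold change divided by the square root of F. Log2 CPM used a prior count of 2. The main edgeR fits of DKO against control in input and of the K1 difference between genotypes were tested on simulated data. The other fits were not, and the simulated libraries all had the same spread, unlike the DKO pulldowns. Transcripts were compared with blastn 2.17.0+. Intervals at 95% and the floor of 3 counts cover counting error only.

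The 8 genes and all gene lists were chosen with earlier results of these data known. From the wider list 1 gene is not reported here and was left out of its counts. Named by rule were the 8 genes, the 3 largest rises and 3 largest falls of the wider list averaging 50 or more counts a library, in input and in K1, other called members of its groups, and the 5 genes most like Lrat. Named outside it, after their values were seen, were Stra6, Cyp26a1, Cyp2s1 and the marker genes.

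Library names in the labels show that the 3 libraries of a number within a genotype come from 1 mouse. Their deviations from the group means correlated at 0.553, 0.567 and 0.662 in control and 0.373, 0.418 and 0.722 in DKO over 9742 genes, so pulldown and input are paired. Between genotypes a number joins different mice. Alternatives were DESeq2 1.42.0, no TMM, RLE factors, no filter, all 12 libraries in one fit, thinning to 2220291 counts, a replicate block and leaving out each animal, in which case the lone animal is assumed to vary like the other group.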

Additional observations from a re-analysis of the deposited data

Results flagged for a closer look

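K1 enrichment over input differed between genotypes, by a test of the difference itself, in 4 genes of the wider retinoid list. For Cd36, a receptor for fatty acids and carotenoids, the difference was -2.23 on the log2 scale (DKO minus control, SE 0.394, edgeR adjusted p 0.0198): K1 was 0.15 above input in control, with 1422 and 1319 K1 counts against 874 and 1227 in input, and stood at -2.07 in DKO, with 30 and 7 against 246 and 320. For Dhrs9, a retinol dehydrogenase, the difference was -3.28 (SE 0.639, edgeR adjusted p 0.0240): K1 was 2.44 above input in control, with 159 and 113 counts against 20 and 22, and stood at -0.84 in DKO, with 106 and 14 against 383 and 337. For Ncoa2, a nuclear receptor coactivator, the difference was -1.87 (SE 0.384, edgeR adjusted p 0.0275): K1 was 1.27 above input in control, with 5333 and 3803 counts against 1540 and 1647, and stood at -0.60 in DKO, with 480 and 158 against 1848 and 1548. For Nrip1, a nuclear receptor corepressor, it was -1.66 (SE 0.416, edgeR adjusted p 0.0467): K1 was 1.47 above input in control, with 8460 and 6386 counts against 2125 and 2401, and stood at -0.20 in DKO, with 844 and 240 against 2212 and 2062. Cd36 and Dhrs9 were lost in a fit of all 12 libraries (edgeR adjusted p 0.0732 for Cd36 and 0.128 for Dhrs9), without control replicate 1 (0.584 for each) and without control replicate 2 (0.258 and 0.267), and Dhrs9 also after thinning (0.0840). Ncoa2 and Nrip1 were lost under the same settings, with all 12 libraries (0.0949 for Ncoa2 and 0.210 for Nrip1), without control replicate 1 (0.639 and 0.666), without control replicate 2 (0.368 and 0.449) and after thinning (0.0538 and 0.0854), and Nrip1 also with RLE factors (0.0744). Over all genes tested 5.47% were called for this difference, of which 652 of 870 were lower, as were these 4. The median difference over all genes was -0.20. The counts above are not scaled to depth: DKO K1 libraries held 2220291 to 5559033 counts and DKO input libraries 11224786 to 11247141. No value of the 8 retinoid genes was marked by the same test.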

How the results depend on the processing

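There were 1185 alternative values of 108 fold changes of the 8 genes and other named genes. Of these, 1012 stayed the same, 106 lost and 32 gained a call, 14 untested J2 values moved by more than their SE and 21 turned direction. Same meant an unchanged direction and side of the threshold or, for untested J2 values, a value within 1 SE. Turns of direction in J2 values that were not called are not among the 21. Rbp2 between genotypes in J2, for example, ran from -0.24 to 0.13. The number of the 8 genes called between DKO and control stayed within 5 to 7 in input, where it was 7. With one animal left out it was 3 to 6 in K1 (5 with all animals), 1 to 7 in J2 (4), 0 to 3 in K1 against input in control (2) and in DKO (2), 0 to 6 in J2 against input in control (3), 0 to 4 in DKO (2), 0 to 1 for the K1 difference (0) and 0 to 3 for the J2 difference (1). K1 against input in control gave 1 with DESeq2 (over all genes 5856 of 15908), 1 with RLE factors (6214 of 15908) and 0 with all 12 libraries in one fit (4587 of 16582). K1 against input in DKO gave 4 without TMM (over all genes 6234 of 15908), 1 with all 12 libraries (3864 of 16582) and 1 after thinning (3511 of 11305). The K1 difference gave 1 with no filter (over all genes 1763 of 28702), and the J2 difference 0 after thinning (211 of 11422). The wider list gave 7 calls in input with all 12 libraries and 3 to 23 in K1 with one animal left out. The causes were not tested.

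None of the values that turned direction had passed with all libraries. With one animal left out, Rbp2 in input ran from -0.36 to 0.056 (without control replicate 2). K1 against input turned for Dhrs3 in control (-0.090 without TMM, -0.063 thinned) and Rdh7 in DKO (-0.090 thinned, -1.48 without DKO replicate 1 to 1.14 without DKO replicate 2). The K1 difference turned for Aldh1a1 (0.13 with DESeq2, 0.13 with RLE factors, 0.33 thinned, 0.11 without DKO replicate 2), Scarb1 (0.060, 0.065 and 0.44 in the first 3 of these, -0.33 without control replicate 1 to 0.13 without control replicate 2), Bco1 (0.031 thinned), Rdh7 (-1.27 without DKO replicate 1 to 1.32 without DKO replicate 2) and Dhrs3 (-0.039 to 0.48 likewise). In K1 Dhrs9 was -0.28 without DKO replicate 1 and 1.62 without DKO replicate 2, and Lgr5 1.18 and -0.22. In input Gata4 was -0.097 without TMM, -0.0011 with all 12 libraries and -0.020 (without DKO replicate 1) to 0.096 (without DKO replicate 2) with one animal left out.

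With the replicate number as a block the 8 genes gave 7 calls in input (over all genes 5732 of 15088) and 5 in K1 (3377 of 12888). Replicate numbers pair no animals between genotypes (deviation correlations 0.04, -0.15 and -0.15 in input, J2 and K1). With the animal as a block, which pairs pulldown and input, the 8 genes gave 1 call for the K1 difference (Isx), where 1912 of 15908 genes were called. For the J2 difference they gave 0, as did all genes tested. In K1 against input they gave 3 in each genotype, where 7288 of 15908 genes were called in control and 6337 of 15908 in DKO.

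Counts over all genes moved by more than 1.5 times in places: input 1675 with all 12 libraries against 5421, K1 1149 to 5819 with one animal left out against 3487, K1 against input in control 281 to 9189 against 6324, the K1 difference 0 to 3802 against 870 and 1912 with the animal block, and the J2 difference 0 with that block against 432. Without TMM the median of all genes was -0.13 in input and -0.39 in K1, and higher calls were 42.1% of the calls in place of 52.4% in input and 27.4% in place of 48.6% in K1; no call of the 8 genes changed direction. DKO pulldown totals of 2220291 to 5826361 limit Lrat, Bco1, Rdh7, Scarb1 and Dhrs3, which had 0 to 77 counts there.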
